A study of Mus musculus with 9 samples.

Results

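The voltage-gated ion channels and their relatives were followed through 9 RNA sequencing libraries of mouse brain material. The members were the rows of the count table whose gene symbol begins with Kcn and a letter, with Scn, a number and a or b, or with Cacna, Cacnb or Cacng, and 138 of 24421 rows met this rule. Of these, 93 were potassium channel genes, 14 were sodium channel genes, 26 were calcium channel genes and 5 were other transcripts that carry such a symbol. SB28 cells are a mouse glioma line carrying GFP and luciferase, and BAL101553 is an orally given prodrug of a microtubule-binding compound that acts on the mitotic spindle. The mice were of strain C57BL/6, all material came from brain, and there were 3 libraries in each of 3 groups. The control group held tumor material of SB28-bearing mice given vehicle, and the BAL101553 group held tumor material of mice given BAL101553. For these 6 libraries the labels name whole tissue, whereas the methods of the study describe GFP-positive tumor cells sorted from dissociated brain after exclusion of cells with the leukocyte markers CD45 and CD11b. Treated mice were killed at a later day than control mice, to match tumor volume, so that treatment and duration of growth cannot be told apart. The libraries of the third group are labelled astrocytes and carry the treatment label BAL101553, and the text of the study does not describe how they were obtained. The labels give no age, and they do not say whether the libraries of a group came from separate mice, so that all p-values below measure the spread between these libraries only. The methods of the study state fewer sequenced samples per group than the deposited table holds, and how independent the libraries of a group are is not known.

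Voltage-gated potassium, sodium and calcium channels open when the membrane depolarizes, and each is built around a pore-forming alpha subunit that auxiliary subunits traffic and tune. Sodium channels carry the upstroke of the action potential, calcium channels turn depolarization into calcium entry, and potassium channels repolarize the cell and set its resting potential. Many members named by the rule are not gated by voltage, among them the inward rectifiers (Kcnj), the 2-pore leak channels (Kcnk), the calcium-activated Kcnn channels, the BK beta subunits (Kcnmb) and the Cacng proteins, several of which accompany AMPA receptors. Astrocytes are known for a high resting potassium conductance, which rests largely on the inward rectifier *Kcnj10* and lets them take up potassium released by active neurons.

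Between 22919523 and 34013875 reads were counted per library, and the ranges of the control and BAL101553 groups overlapped. The 138 members took 0.0561% to 0.0663% of the counts in control libraries, 0.0654% to 0.0731% in BAL101553 libraries and 0.358% to 0.361% in astrocytes libraries. In the tumor libraries the summed astrocyte markers were at 760 to 1144 CPM (reads relative to library totals scaled over all 9 libraries), mostly *Gja1* at 650 to 928 CPM, while *Slc1a2* was at 0.852 to 1.61 CPM. The neuron markers summed to 34.7 to 122.6 CPM there, mostly *Stmn2*, *Nefl*, *Nefm* and *Syn1*, against 29.2 to 32.1 CPM in the astrocytes libraries. *Rbfox3* was at 0 in the tumor, and *Snap25* was at 0.0449 to 0.342 CPM there against 4.76 to 5.06 CPM in the astrocytes libraries. Of the 10 neuron markers, 3 were called higher and 5 lower in astrocytes than in BAL101553 libraries. Endothelium markers summed to 515 to 866 CPM in the tumor, mostly *Cdh5*, and oligodendrocyte markers to 15.3 to 20.6 CPM. Of the other endothelium markers there, *Flt1* was at 24.0 to 70.6 CPM and *Tek* at 0.473 to 9.87 CPM. *Cldn5* and *Pecam1* were at 0.295 to 1.48 and 0.324 to 1.21 CPM in the tumor. The libraries labelled astrocytes held the astrocyte markers at a summed 12431 to 15209 CPM over 10 genes, but also the oligodendrocyte markers at 10282 to 12723 CPM over 6 genes, the microglia and macrophage markers at 620 to 1295 CPM over 10 genes and the ependyma markers at 444 to 731 CPM over 4 genes. Levels in this group are therefore levels of a mixture, and in such bulk RNA fewer cells of a type and less RNA per cell cannot be told apart. Library 2 of the BAL101553 group stood apart. Of the 12094 genes at 1 CPM or more in at least 1 library of that group, 122 (1.01%) were in library 2 at more than 3 times both others. The share was 0.0677% to 0.215% for the other 5 tumor libraries.

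Most channel genes were silent or nearly so in the tumor libraries. A mean level of at least 1 CPM over the 6 tumor libraries was reached by 33 of the 138 members, 56 were under 1 CPM there and at 1 CPM or more in the astrocytes libraries, and 49 were under 1 CPM in both. In all 3 control libraries 43 members had no read, in all 3 BAL101553 libraries 35 had none, and in the astrocytes libraries 7 had none. At these depths a count of 0 over the BAL101553 group allows a level of up to 0.0339 CPM (3 reads, counting error only). Between 29 and 33 members exceeded 1 CPM in a tumor library and between 83 and 85 in an astrocytes library. Only 4 members were at 1 CPM or more in the tumor libraries and under 1 CPM in the astrocytes libraries.

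**Figure D1:**
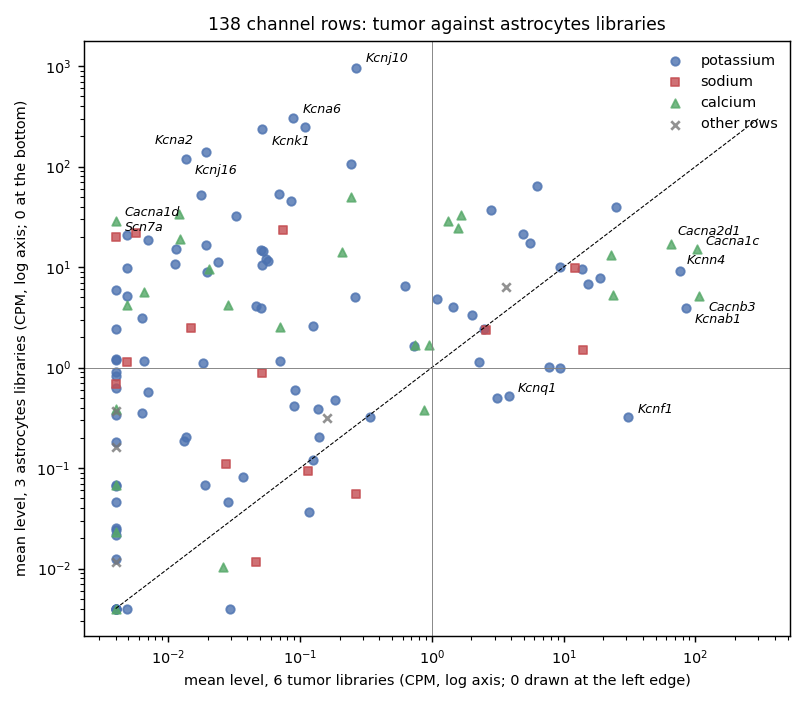
Mean level of each of the 138 members in the 6 tumor libraries (x axis, CPM, log scale) and in the 3 astrocytes libraries (y axis, CPM, log scale), with a mean of 0 drawn at the edge, grey lines at 1 CPM and a dashed line of equal level. Of the members, 56 lie left of 1 CPM in the tumor libraries and above 1 CPM in the astrocytes libraries.

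Set side by side per length (CPM per kb of exon), the channels of the tumor cells and of the astrocytes libraries were led by different genes. The potassium family summed to 67.6 ± 6.89 CPM per kb in control libraries (SD, n = 3), to 58.3 ± 0.834 CPM per kb in BAL101553 libraries and to 610 ± 4.94 CPM per kb in astrocytes libraries. *Kcnn4*, an intermediate-conductance channel opened by calcium and known from immune cells and gliomas, led it in both tumor groups, with 15.3 ± 1.80 CPM per kb in control and 14.4 ± 3.47 CPM per kb in BAL101553 libraries. It made up 22.9% and 24.8% of the family sum in these groups. *Kcnab1*, a beta subunit that binds Kcna channels, came next in control libraries with 13.7 ± 2.91 CPM per kb, overlapping *Kcnn4*. In BAL101553 libraries *Kcnf1*, a silent Kv subunit that works only with other pore subunits, came next with 6.89 ± 1.94 CPM per kb and overlapped *Kcnab1*, at 5.88 ± 1.14 CPM per kb. The 2-pore genes *Kcnk5* and *Kcnk2* held between 4.21 and 5.50 CPM per kb in the means of both tumor groups.

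In the astrocytes libraries the same family was led by *Kcnj10*, with 178 ± 11.2 CPM per kb or 29.2% of the family sum. *Kcnk1*, a 2-pore leak channel, followed with 106 ± 8.6 CPM per kb, and these leading genes did not overlap each other. *Kcna1* and *Kcna6*, pore subunits of delayed rectifiers, stood at 51.4 ± 6.55 and 51.1 ± 6.09 CPM per kb and could not be ordered. Likewise *Kcnj16*, which joins *Kcnj10* in mixed channels, and *Kcnip3*, a calcium-binding Kv partner, overlapped at 29.96 ± 3.06 and 29.7 ± 2.85 CPM per kb.

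The sodium family was small in every group, with 8.33 ± 0.764 CPM per kb in control, 8.44 ± 1.39 in BAL101553 and 14.8 ± 0.314 in astrocytes libraries. The leading pore gene of the astrocytes libraries was *Scn7a*, a sodium-sensing relative found in glia, with 2.74 ± 0.446 CPM per kb, and the beta subunit *Scn3b* stood at 4.02 ± 0.341 CPM per kb there. The calcium family summed to 38.6 ± 3.38 CPM per kb in control, 45.6 ± 3.78 in BAL101553 and 52.6 ± 0.922 in astrocytes libraries. *Cacnb3*, a beta subunit that carries alpha subunits to the membrane, made up 66.8% of it in control and 60.3% in BAL101553 libraries. In the astrocytes libraries the AMPA receptor partners *Cacng7* (13.6 ± 1.40 CPM per kb) and *Cacng8* (6.09 ± 0.685 CPM per kb) came first, and *Cacng8* overlapped *Cacnb4*.

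**Figure D2:**
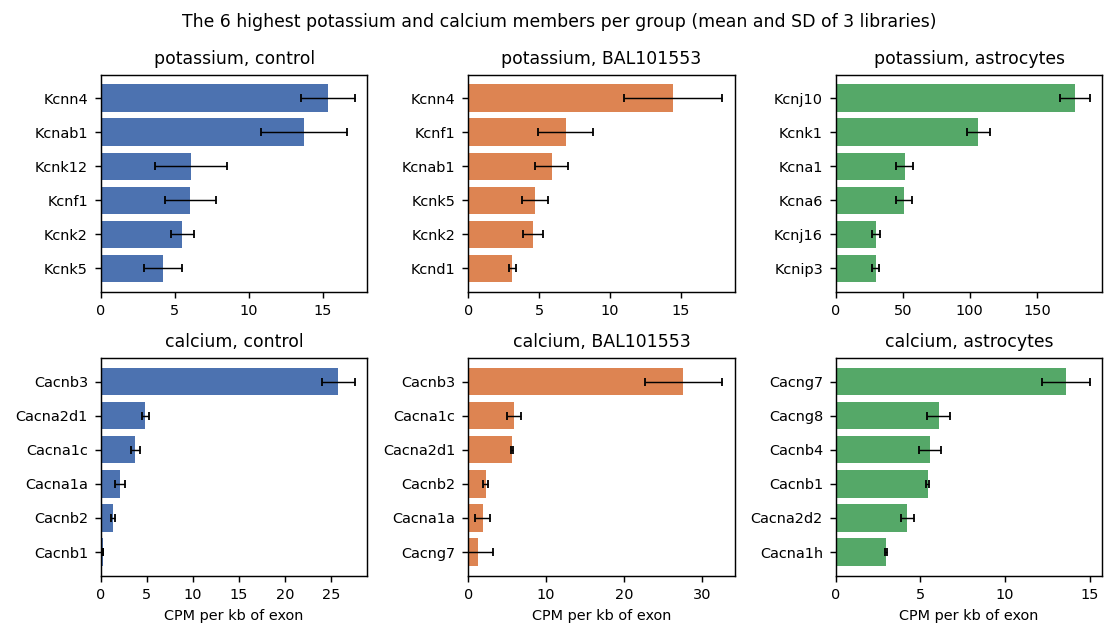
Level per length (x axis, CPM per kb of exon) of the 6 highest members of the potassium and calcium families in each group, with bars for the mean and error bars for the SD of 3 libraries; the x axes differ between panels. *Kcnn4* and *Cacnb3* led their families in both tumor groups, and *Kcnj10* and *Cacng7* in the astrocytes libraries.

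The first comparison asked how the channels of tumor cells from BAL101553-treated mice differed from those of control tumors. Calcium channel genes accounted for 3 of the 5 members that rose, namely the L-type pore gene *Cacna1c* and the beta subunits *Cacnb1* and *Cacnb2*, and the other 2 were the Kv pore genes *Kcnd1* and *Kcnq1*. The 3 members that fell were potassium genes, namely *Kcnab1*, *Kcnk12* and *Kcnmb1*. Of the 138 members, 37 had enough reads to be tested with edgeR's quasi-likelihood test, and 29 of these were not called at a Benjamini-Hochberg adjusted p of 0.05. The 8 called members were 21.6% of the 37, where 14.7% of all 12633 genes tested were called, 8.64% as higher and 6.09% as lower. In 11 of the 37 every BAL101553 library lay above every control library, and in 5 every one lay below (20.1% and 19.6% of all genes tested). The median log2 fold change of the 37 was 0.26, beside 0.02 for all genes tested, and 16 had an unadjusted p under 0.05, beside 34.1% of all genes. All 8 calls were also made by DESeq2 and limma-trend. Of the 8, none was made without control library 3, and only that of *Kcnab1* without control library 1 or without BAL101553 library 3, fits in which the share of all genes called was 1.5%, 3.56% and 5.26%.

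**Figure D3:**
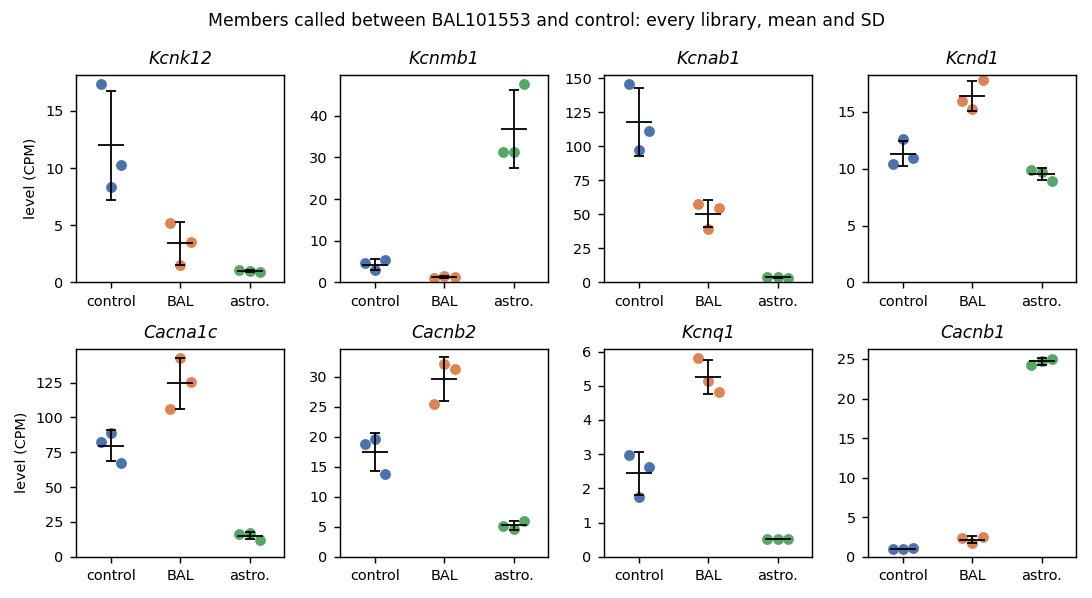
Level (y axis, CPM, linear scale from 0) of the 8 members called between BAL101553 and control libraries, with a point for each library and the mean and SD of 3 libraries per group (BAL is BAL101553, astro. is astrocytes). In each panel the 3 BAL101553 points lie wholly above or wholly below the 3 control points.

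Among the Kv pore genes, *Kcnd1*, which carries a fast-inactivating A-type current, was at 10.5, 12.6 and 10.9 CPM in the control libraries and at 16.0, 15.3 and 17.8 CPM in the BAL101553 libraries. All BAL101553 libraries lay above all control libraries, and the log2 fold change was 0.54 (SE 0.13, edgeR adjusted p = 0.0367). Without any 1 of the libraries except BAL101553 library 2 the call was lost, at adjusted p from 0.0511 to 0.131. *Kcnq1*, a delayed rectifier of heart and epithelia, was at 2.96, 1.74 and 2.61 CPM in control and at 5.81, 5.13 and 4.83 CPM in BAL101553 libraries. The groups did not overlap, with a log2 fold change of 1.11 (SE 0.25, edgeR adjusted p = 0.0283). This call too was kept only without BAL101553 library 2, the other 5 fits giving adjusted p from 0.0577 to 0.0937. *Kcnq1* and the antisense transcript *Kcnq1ot1*, which lies inside it on the opposite strand of chromosome 7 and is known for imprinting of this locus, share 2.96% of the exon bases of *Kcnq1*. *Kcnq1ot1* was at 2.15, 2.31 and 1.68 CPM in control and at 2.70, 7.69 and 5.36 CPM in BAL101553 libraries, which did not overlap, and its edgeR adjusted p was 0.0507 (log2 fold change 1.36). DESeq2 called it as higher (adjusted p = 0.00907), and limma-trend did not (adjusted p = 0.0615). The libraries were stranded, but whether the counting used strand is not given in the sources used here, so reads of the pair cannot be assigned to one of them with certainty. The other 8 Kv pore genes tested were not called by edgeR or limma-trend, and DESeq2 called 2 of them lower, *Kcnh1* and *Kcnc2*. *Kcnh1*, an ether-à-go-go channel seen in many tumors, was at 21.1, 27.9 and 20.2 CPM in control and at 13, 12 and 18.4 CPM in BAL101553 libraries. Its groups did not overlap, but the edgeR adjusted p was 0.0591 (log2 fold change -0.67, SE 0.20). DESeq2 gave it an adjusted p of 0.0136, and without BAL101553 library 3 edgeR called it too (log2 fold change -0.87, adjusted p = 0.0460). *Kcnc2*, a fast delayed rectifier, was at 5.34, 2.16 and 4.25 CPM in control and at 1.71, 0.118 and 1.24 CPM in BAL101553 libraries, with an edgeR adjusted p of 0.0994 and a DESeq2 adjusted p of 0.0271.

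Of the Kv auxiliary genes, *Kcnab1* showed the smallest adjusted p of all members in this comparison. It was at 146, 96.9 and 111 CPM in control and at 57.6, 39.4 and 54.5 CPM in BAL101553 libraries. Every control library lay above every BAL101553 library, and the log2 fold change was -1.22 (SE 0.19, edgeR adjusted p = 0.0118). Among the 6 fits that left out 1 library, the call was lost only without control library 3, where the adjusted p was 0.0503 and the log2 fold change -1.26. The related *Kcnab3*, also a beta subunit, was at 0.493 to 0.808 CPM in control and at 0.434 to 1.44 CPM in BAL101553 libraries, with overlapping groups. *Kcnip1*, a calcium-binding partner of Kcnd channels, was not called either, and BAL101553 library 2 stood at 7.06 CPM against 0.855 and 1.88 CPM in the other libraries of its group.

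*Kcnmb1*, the BK channel beta subunit typical of smooth muscle, was at 4.62, 2.92 and 5.30 CPM in control and at 1.16, 1.58 and 1.24 CPM in BAL101553 libraries. The groups did not overlap, with a log2 fold change of -1.68 (SE 0.30, edgeR adjusted p = 0.0159). It was not called without control library 1 (adjusted p = 0.0560), control library 3 (adjusted p = 0.0716) or BAL101553 library 3 (adjusted p = 0.0525). *Kcnma1*, the BK pore gene that this subunit modifies, had 0 to 1 read in each of the 6 tumor libraries. The pericyte and smooth muscle markers moved the same way, with the sum of 5 genes at 840 to 1067 CPM in control and 468 to 689 CPM in BAL101553 libraries and 2 of 3 tested genes lower. So did the endothelium sum, at 739 to 866 and 515 to 645 CPM, and the astrocyte sum, at 1075 to 1144 and 760 to 919 CPM. These sums were mostly *Cdh5* and *Gja1*. Of 5 tested endothelium genes 1 was lower, and of 6 tested astrocyte genes 2 were lower and 1 was higher. The part of any of these lists in the *Kcnmb1* values was not tested. Nearly all of the pericyte and smooth muscle sum was *Acta2* and *Tagln*, while *Higd1b* was at 0 in all 6 tumor libraries and *Myh11* at 0.0884 to 0.359 CPM. *Kcnn4*, the leading potassium gene, was at 70.5, 88.6 and 76.4 CPM in control and at 66.3, 61.0 and 94.1 CPM in BAL101553 libraries. Its groups overlapped, and the edgeR adjusted p was 0.755 (log2 fold change -0.08, SE 0.17).

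Among the 2-pore genes, *Kcnk12*, a halothane-inhibited relative that gives little current on its own, was at 17.4, 8.34 and 10.3 CPM in control and at 5.20, 1.5 and 3.53 CPM in BAL101553 libraries. All BAL101553 libraries lay below all control libraries, and the log2 fold change was -1.80 (SE 0.45, edgeR adjusted p = 0.0359). Leaving out control library 1, control library 3 or BAL101553 library 3 ended the call, at adjusted p from 0.0928 to 0.105. The leak channels *Kcnk2* and *Kcnk5* overlapped between the groups, with log2 fold changes of -0.27 and 0.17. *Kcnk3*, an acid-sensitive leak channel, was at 0.0449, 1.74 and 0.0842 CPM in control and at 1.61, 1.74 and 1.35 CPM in BAL101553 libraries. Control library 2 alone lay at the level of the treated libraries, and without it *Kcnk3* was called as higher (log2 fold change 4.49, edgeR adjusted p = 0.0178), whereas with it the adjusted p was 0.368.

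Of the 15 inward rectifiers 3 were tested and 0 called by edgeR or limma-trend, while 1 had an unadjusted edgeR p under 0.05 and 1 was called by DESeq2. That gene was *Kcnj2*, the classical strong rectifier of muscle and brain, at 4.31, 2.88 and 1.39 CPM in control and at 8.82, 12.5 and 3.30 CPM in BAL101553 libraries. The lowest treated library lay inside the control range, and the edgeR adjusted p was 0.0921 (log2 fold change 1.52, SE 0.54). *Kcnj12*, a strong rectifier of muscle, overlapped at 1.68 to 2.20 CPM in control and 1.26 to 2.74 CPM in BAL101553 libraries. The glial rectifier *Kcnj10* stayed between 0.0684 and 0.379 CPM in all 6 tumor libraries and was too low to test.

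Of the 14 sodium channel genes 3 were tested, and 0 were called by edgeR, DESeq2 or limma-trend, with 1 at an unadjusted edgeR p under 0.05. *Scn2a1*, a pore gene of neurons and their precursors, was at 1.70, 2.20 and 1.56 CPM in control and at 2.43, 2.84 and 4.86 CPM in BAL101553 libraries. Its groups did not overlap, and the edgeR adjusted p was 0.0980 (log2 fold change 0.90, SE 0.33).

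Of the calcium channel genes 10 were tested, 3 rose and 0 fell by edgeR (0 fell also by DESeq2 and limma-trend, and 0 at an unadjusted edgeR p under 0.05). DESeq2 called 4 higher, with 2 pore genes among them where edgeR called 1, and limma-trend called 3. *Cacna1c* was at 82.4, 89.1 and 67.3 CPM in control and at 106, 142 and 125 CPM in BAL101553 libraries. The groups did not overlap, with a log2 fold change of 0.65 (SE 0.14, edgeR adjusted p = 0.0272). The adjusted p was 0.0719 without control library 1, 0.0940 without control library 3 and 0.0705 without BAL101553 library 3. *Cacnb2*, a beta subunit of L-type channels, was at 18.8, 19.7 and 13.8 CPM in control and at 25.4, 32.0 and 31.3 CPM in BAL101553 libraries. It rose in every treated library over every control library (log2 fold change 0.77, SE 0.17, edgeR adjusted p = 0.0254), and the same 3 omissions gave adjusted p from 0.0631 to 0.0849. *Cacnb1*, the beta subunit of skeletal muscle that brain also makes, was at 0.942, 0.947 and 1.05 CPM in control and at 2.39, 1.70 and 2.44 CPM in BAL101553 libraries. These groups were likewise apart (log2 fold change 1.16, SE 0.27, edgeR adjusted p = 0.0316), and the call was kept only without BAL101553 library 2, with adjusted p from 0.0801 to 0.107 in the other 5 fits. *Cacnb3*, the most abundant calcium channel gene per length, overlapped between the groups at 95.4 to 110 CPM in control and 87.9 to 125 CPM in BAL101553 libraries. *Cacna2d1*, an alpha2delta subunit and the target of gabapentin, was at 55.4 to 63.9 CPM in control and at 68.3 to 71.9 CPM in BAL101553 libraries, which did not overlap, with a log2 fold change of 0.22 (SE 0.09, edgeR adjusted p = 0.122). *Cacna1a*, the P/Q-type pore gene, overlapped, with BAL101553 library 2 lowest at 9.0 CPM and the other 5 tumor libraries between 19.7 and 30.8 CPM.

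Single libraries carried several members that edgeR did not call. In BAL101553 library 2, 5 members stood at more than 3 times both other libraries of its group. That was 13.5% of the 37 members at 1 CPM or more in at least 1 library of the group, beside the 1.01% of all genes given above. The 5 were *Kcne4*, an inhibitory Kv subunit, at 7.22 CPM against 0.103 and 0.353 CPM, *Cacng7* at 8.4 CPM against 0.274 and 0.825 CPM, *Kcnip1*, the N-type pore gene *Cacna1b* at 3.75 CPM against 0.410 and 0.648 CPM, and *Kcnip3* at 1.22 CPM against 0.0684 and 0.0589 CPM. All of them but *Kcnip1* reached 1 CPM in that library only, so the value that sets them apart also let them be counted. These 37 members are not the 37 tested members, since *Kcne4*, *Kcnip3* and *Cacng7* were not tested with all libraries. Among the 37 tested members *Cacna1b* had the highest log2 fold change, 2.30, with an SE of 0.87 and an edgeR adjusted p of 0.108. When BAL101553 library 1 was left out, edgeR called *Cacng7* and *Kcnq1ot1* as higher (log2 fold changes of 4.66 and 1.67, edgeR adjusted p = 0.0388 and 0.0255). With all libraries *Cacng7* had too few reads to be tested. All 8 calls of the comparison were also made without BAL101553 library 2. Elsewhere, *Cacna1h* was highest in BAL101553 library 3 (3.33 CPM against 0.889 and 0.355 CPM) and *Kcnk13* in control library 1 (9.24 CPM against 2.43 and 2.78 CPM).

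**Figure D4:**
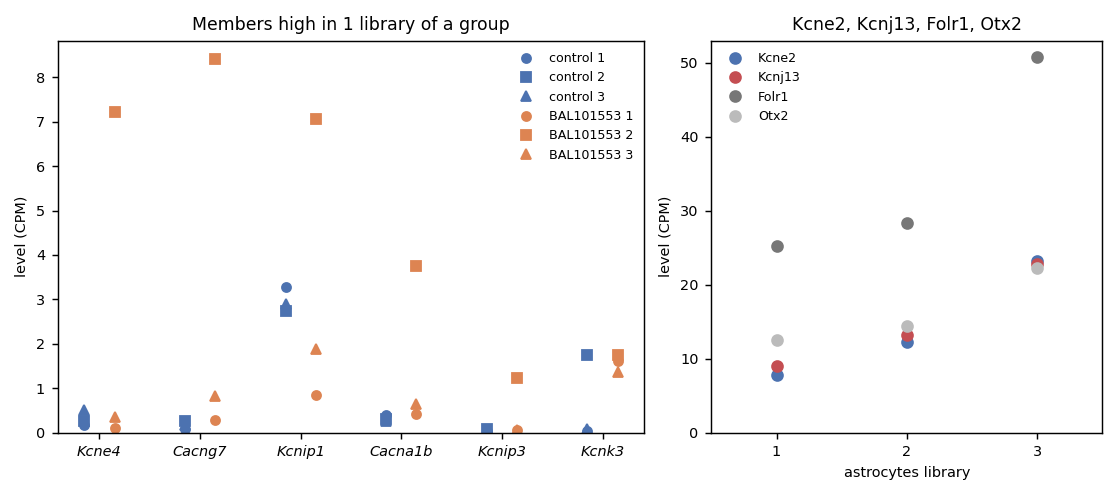
Left, level (y axis, CPM) of 6 members in each tumor library, by group (color) and library (marker shape). Right, level (CPM) of *Kcne2*, *Kcnj13* and 2 choroid plexus genes in the 3 astrocytes libraries. BAL101553 library 2 stands at 7.22 CPM for *Kcne4* and 8.4 CPM for *Cacng7*, and all 4 genes on the right are highest in astrocytes library 3.

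A list of 39 genes whose proteins cluster, anchor or accompany these channels was read in the same fit. Of these 21 were tested, 3 rose and 0 fell by edgeR, with 4 higher and 3 lower at an unadjusted p under 0.05, and DESeq2 and limma-trend called 1 and 0 lower. The edgeR calls were 14.3% of the 21, near the 14.7% of all genes tested. Of all genes, 34.1% had an unadjusted edgeR p under 0.05, so the partners were called about as often as genes at large. *Adam22*, a membrane protein that binds LGI1 at synapses and nodes, was at 13.7, 8.87 and 6.99 CPM in control and at 20.1, 40.1 and 33.1 CPM in BAL101553 libraries. The groups were apart (log2 fold change 1.67, SE 0.32, edgeR adjusted p = 0.0184). *Cntnap1*, an adhesion protein beside nodes, was at 2.69, 1.02 and 2.23 CPM in control and at 4.72, 4.46 and 4.68 CPM in BAL101553 libraries (log2 fold change 1.23, SE 0.34, edgeR adjusted p = 0.0496). Its groups did not overlap either. The *Adam22* call was lost without control library 3 (adjusted p = 0.0746) or BAL101553 library 3 (adjusted p = 0.0534). That of *Cntnap1* was kept in none of the 6 fits that left out 1 library, with adjusted p up to 0.130.

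**Figure D5:**
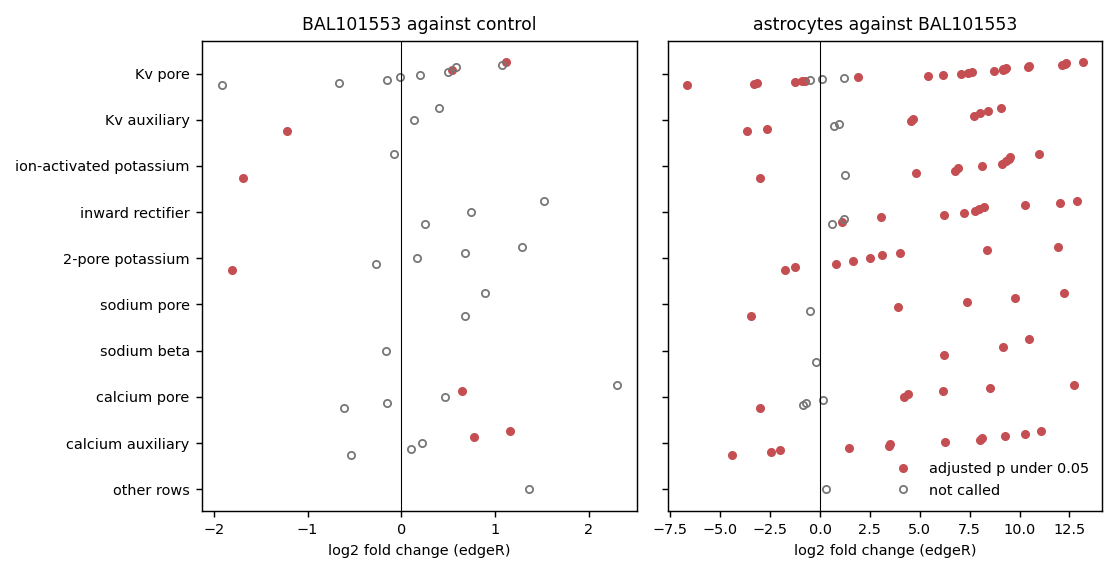
Log2 fold change from edgeR (x axis) of each tested member by channel class (y axis), for BAL101553 against control (left) and astrocytes against BAL101553 (right), with filled red points for an adjusted p under 0.05 and open points for members not called. On the left 8 of 37 points are filled, and on the right 86 of 100. Members with few or no BAL101553 reads have fitted values on the right that depend on the fit's prior count.

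The second comparison set the libraries labelled astrocytes against the BAL101553 tumor libraries, which carry the same treatment label. Here most channel genes tested were higher in the astrocytes libraries, and a smaller set was lower. The classes differed in extent, with inward rectifiers summing to 11.8 ± 4.10 CPM in BAL101553 and 1160 ± 53.6 CPM in astrocytes libraries, Kv pore genes to 98.2 ± 4.44 and 866 ± 65.7 CPM, and calcium pore genes to 150 ± 14.6 and 101 ± 1.48 CPM. Of 100 members tested 70 were higher, 16 were lower and 14 were not called, where 46.3% and 38.9% of all 15314 genes tested were higher and lower (85.1% called in all). At an unadjusted p under 0.05 there were 86, beside 85.8% of all genes. In 72 members every astrocytes library lay above every BAL101553 library, beside 47.6% of all genes, and in 16 below, beside 40.2%. The median log2 fold change of the 100 was 6.2, or 4.70 with the 14 members that had no read in the BAL101553 libraries set to the bound that 3 reads allow, and that of all genes tested was 0.18. Against the control libraries, which share the astrocytes samples with this comparison, 99 members were tested and 77 were higher and 17 lower (48.8% and 39.5% of all genes tested, 88.3% called). In 77 of the 99 all astrocytes libraries lay above all control libraries and in 19 below (49.6% and 40.3% of all genes), and 94 had an unadjusted p under 0.05 (88.8% of all genes). In both comparisons a member was kept if 1 group alone had enough reads. Of the 138 members, 56 were under 1 CPM in the tumor and at 1 CPM or more in the astrocytes libraries, and 37 were tested between the tumor groups. A member kept only through the astrocytes libraries could hardly be called lower. For such members the counts as higher, the groups apart and the medians are no separate result.

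Of the inward rectifiers 10 of 12 tested were higher and 0 were lower (0 also by DESeq2 and limma-trend, and 0 lower at an unadjusted edgeR p under 0.05). *Kcnj10* was at 0.0684, 0.355 and 0.265 CPM in BAL101553 and at 1013, 981 and 896 CPM in astrocytes libraries. The groups lay orders of magnitude apart (log2 fold change 12.04, SE 0.28, edgeR adjusted p = 1.7e-08). *Kcnj16* had 1 read over the 3 BAL101553 libraries against 10381 over the astrocytes libraries, at 126, 104 and 124 CPM. Their ratio was 10453 with a 95% counting interval from 1876 to 412909. *Kcnj14*, a rectifier found in brain, was at 7.06, 6.21 and 6.15 CPM in astrocytes libraries against 0.434 to 1.03 CPM in BAL101553 libraries (log2 fold change 3.04, SE 0.31, edgeR adjusted p = 3.2e-05). *Kcnj8*, the pore of vascular K-ATP channels, was at 28.1, 36.6 and 32.4 CPM in astrocytes libraries against 2 reads in the BAL101553 group, and its sulfonylurea receptor partner *Abcc9* was at 75.4, 103 and 84.2 CPM against 0.0342 to 0.118 CPM. *Kcnj2* differed least among the 10 called rectifiers, with 17.8, 20.6 and 14.2 CPM in astrocytes libraries (log2 fold change 1.12, SE 0.41, edgeR adjusted p = 0.0326).

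The Kv pore genes split, with 17 of 26 tested higher and 6 lower. *Kcna1*, *Kcna2* and *Kcna6*, which form the delayed rectifiers of axons beside nodes, were each under 0.12 CPM in every BAL101553 library. *Kcna1* was at 243, 278 and 215 CPM in astrocytes libraries (log2 fold change 12.29, SE 0.24, edgeR adjusted p = 9.0e-09). *Kcna2* was at 153, 145 and 126 CPM in astrocytes libraries against 1 read over the BAL101553 group, a ratio of 12598 with a 95% counting interval from 2261 to 497622. *Kcna6* was at 311, 335 and 264 CPM in astrocytes libraries (log2 fold change 12.30, SE 0.29, edgeR adjusted p = 1.7e-08), and 39.6% of its exon bases are shared with a transcript on the opposite strand. The oligodendrocyte markers of these libraries lay at 10282 to 12723 CPM in sum, and their part in the Kcna levels was not tested. On the other side, *Kcnf1* was at 36.3, 40.2 and 22.5 CPM in BAL101553 and at 0.308, 0.138 and 0.528 CPM in astrocytes libraries. It was the member with the largest fall (log2 fold change -6.65, SE 0.39, edgeR adjusted p = 1.3e-06). *Kcnq1* was lower too, at 0.517 to 0.528 CPM in astrocytes libraries (log2 fold change -3.30, SE 0.22, edgeR adjusted p = 2.7e-06), as was *Kcnq5*, an M-current subunit (log2 fold change -3.15). The silent subunit *Kcng4* had no read in the BAL101553 group and was at least 550-fold higher in astrocytes libraries, at 15.8 to 22 CPM. *Kcnh2*, the delayed rectifier of heart known as hERG, overlapped between the groups at 7.10 to 10.6 CPM in BAL101553 and 8.14 to 12.5 CPM in astrocytes libraries.

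Of the Kv auxiliary genes 6 of 10 tested were higher and 2 lower. *Kcnab1* was at 3.85, 4.24 and 3.62 CPM in astrocytes libraries, below every BAL101553 library (log2 fold change -3.68, SE 0.18, edgeR adjusted p = 5.4e-07). *Kcne1l*, a small X-linked Kv subunit, was at 9.22, 8.73 and 9.10 CPM in astrocytes libraries against 2 reads in the BAL101553 group. *Kcnab2*, a relative of *Kcnab1* in neurons and glia, went the other way, with 9.37 to 11.6 CPM in astrocytes libraries against at most 0.118 CPM in BAL101553 libraries. *Kcne2*, a small subunit of epithelia, was at 7.74, 12.3 and 23.3 CPM in astrocytes libraries against 2 reads in the BAL101553 group, a ratio of 616 with a 95% counting interval from 170 to 5090. *Kcnj13*, a rectifier of transporting epithelia whose exons overlap another gene over 49.1% of their bases, was at 8.97, 13.2 and 22.7 CPM in the same libraries. Both were lowest in library 1 and highest in library 3, as were the choroid plexus genes *Ttr* (1626, 2208 and 3870 CPM), *Folr1* (25.2, 28.4 and 50.8 CPM), *Clic6*, *Otx2*, *Cldn2* and *Kl*, a list chosen after these values were seen. The part of choroid plexus RNA in the levels of *Kcne2* and *Kcnj13* was not tested.

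Among the ion-activated potassium genes 9 of 11 tested were higher and 1 lower. The lower gene was *Kcnn4*, at 10.3, 8.14 and 9.06 CPM in astrocytes libraries (log2 fold change -3.0, SE 0.19, edgeR adjusted p = 2.1e-06). Its small-conductance relatives were higher, with *Kcnn3* at 54.5, 42.0 and 40.2 CPM in astrocytes libraries against at most 0.118 CPM in BAL101553 libraries, and *Kcnn2* at 51.9, 49.5 and 57.8 CPM against at most 0.177 CPM. *Kcnt1*, a sodium-activated channel, was at 40.1, 51.4 and 66.4 CPM against 2 reads in the BAL101553 group. *Kcnu1*, otherwise known from sperm, had no read in the BAL101553 group and was at least 92.7-fold higher in the astrocytes libraries. *Kcnmb1* was at 31.3, 31.4 and 47.5 CPM in astrocytes libraries (log2 fold change 4.81, SE 0.24, edgeR adjusted p = 4.8e-07), so that it lay lowest in the BAL101553 group and highest in the astrocytes group. All 9 of the 14 2-pore genes that were tested were called, 7 higher and 2 lower. *Kcnk1* was at 246, 216 and 251 CPM in astrocytes libraries and at most 0.118 CPM in BAL101553 libraries (log2 fold change 11.94, SE 0.29, edgeR adjusted p = 1.9e-08), a fold change that was 12.69 without BAL101553 library 2 and 11.29 without BAL101553 library 3. *Kcnk10*, a mechanically gated leak channel, was at 4.96, 4.48 and 6.04 CPM in astrocytes libraries against 1 read in the BAL101553 group, a ratio of 454 with a 95% counting interval from 81.1 to 17976. *Kcnk5* (log2 fold change -1.24, SE 0.18, edgeR adjusted p = 0.00027) and *Kcnk12* (log2 fold change -1.75, SE 0.44, edgeR adjusted p = 0.00599) were lower. The *Kcnk12* call was lost in 3 fits that left out 1 library of each group, at adjusted p from 0.0503 to 0.0704.

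Among sodium channel genes 7 of 10 tested were higher and 1 lower. *Scn7a* was at 21.6, 16.4 and 22.4 CPM in astrocytes libraries with no read in any tumor library, at least 594-fold higher than in the BAL101553 group. *Scn8a*, the main pore at mature nodes of Ranvier, was at 24.6, 23.6 and 22 CPM against 2 reads in the BAL101553 group, a ratio of 1039 with a 95% counting interval from 287 to 8586. *Scn3b*, a beta subunit, was at 24.0, 20.4 and 21.5 CPM against 1 read, and *Scn2b*, another, was at least 72.8-fold higher. *Scn2a1* overlapped, at 2.43 to 4.86 CPM in BAL101553 and 2.0 to 2.81 CPM in astrocytes libraries. *Scn1a*, a main pore gene of inhibitory neurons, was between 0 and 0.154 CPM over all 9 libraries and too low to test.

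Of the calcium channel genes 14 of 21 tested were higher and 4 lower. The L-type pore genes went opposite ways. *Cacna1c* was at 16.1, 17.4 and 12.2 CPM in astrocytes libraries, below all tumor libraries (log2 fold change -3.01, SE 0.16, edgeR adjusted p = 8.3e-07). *Cacna1d* was at 28.1, 28.9 and 29.3 CPM in astrocytes libraries and had no read in any of the 6 tumor libraries, at least 848-fold higher than in the BAL101553 group. *Cacna1s*, the L-type pore of skeletal muscle, was at 6.04, 3.76 and 7.28 CPM in astrocytes libraries against 1 read in the BAL101553 group, a ratio of 501 with a 95% counting interval from 89.6 to 19846. *Cacna1h*, a T-type pore gene, was at 0.889, 0.355 and 3.33 CPM in BAL101553 and at 29.6, 28.6 and 28.7 CPM in astrocytes libraries, which lay above all tumor libraries. Beta subunits differed in both directions as well. *Cacnb3* was at 119, 87.9 and 125 CPM in BAL101553 and at 5.02, 5.0 and 5.28 CPM in astrocytes libraries (log2 fold change -4.43, SE 0.17, edgeR adjusted p = 1.3e-07), and *Cacnb2* was lower as well (log2 fold change -2.48). *Cacnb4*, the beta subunit typical of cerebellum, was at 52.7, 54.3 and 43.2 CPM in astrocytes libraries against at most 0.274 CPM in BAL101553 libraries. Of the alpha2delta subunits, *Cacna2d1* was lower (log2 fold change -2.02, SE 0.11, edgeR adjusted p = 7.6e-07). *Cacna2d2*, at 32.5, 31.7 and 37.0 CPM in astrocytes libraries, and *Cacna2d4*, at 18.2, 19.6 and 18.9 CPM, each had 1 read in the BAL101553 group.

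Among the 5 other rows only *Kcnq1ot1* was tested, and it overlapped at 2.70 to 7.69 CPM in BAL101553 and 5.51 to 7.74 CPM in astrocytes libraries. *Kcnrg*, a regulator of Kv assembly that forms no channel, was at 0.0884 to 0.197 CPM in BAL101553 and 0.276 to 0.370 CPM in astrocytes libraries. The antisense transcript *Kcnd3os* had no read in the 6 tumor libraries and was at 0.308 to 0.453 CPM in astrocytes libraries.

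Of the 39 partner genes 33 were tested, 24 higher and 5 lower. The called partners were 87.9%, near the 85.1% of all genes tested. They were 72.7% higher and 15.2% lower, beside 46.3% and 38.9% of all genes. Between the tumor groups 21 partners were tested, so some were kept here only through the astrocytes libraries and could hardly be called lower. The node and axon proteins *Nfasc* (760 to 970 CPM in astrocytes libraries) and *Ank2* (514 to 595 CPM) and the pacemaker channel *Hcn2* (255 to 316 CPM) were each under 5 CPM in all tumor libraries. The lower genes included the RGK inhibitors of calcium channels *Rem2*, *Rrad* and *Gem*, and *Stac2*, an adaptor of L-type channels. The RGK relative *Rem1* went the other way and was called higher (log2 fold change 3.06, SE 0.63, edgeR adjusted p = 0.00203). *Stac2* was at 19.97, 26.5 and 23.4 CPM in BAL101553 and at 0.493, 0.655 and 0.566 CPM in astrocytes libraries (log2 fold change -5.33, SE 0.20, edgeR adjusted p = 1.3e-07).

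Channel genes that lie beside each other did not always share a direction. *Kcna3*, *Kcna2* and *Kcna10* lie in a row on chromosome 3, and *Kcna3* was lower in astrocytes than in BAL101553 libraries (log2 fold change -1.24, SE 0.34, edgeR adjusted p = 0.00939) while *Kcna2*, 63075 bases away, was higher. *Cacna1c* and *Cacna2d4*, 40107 bases apart on chromosome 6, likewise went opposite ways. *Kcna5*, *Kcna1* and *Kcna6* on chromosome 6 were all higher, as were *Kcnj9* and *Kcnj10* on chromosome 1 and *Kcnj16* and *Kcnj2* on chromosome 11. Of all 100 members tested 70 were higher, and the neighbours named are a selection. A tie between position and direction was not tested. *Kcnmb1* lies within *Kcnip1* on the opposite strand, and in the astrocytes libraries *Kcnmb1* was higher and *Kcnip1* lower (log2 fold change -2.67, SE 0.76, edgeR adjusted p = 0.0108). The *Kcnip1* fold rests on BAL101553 library 2, at 7.06 CPM, and without it the log2 fold change was -1.47 (adjusted p = 0.0128). Without BAL101553 library 3 and astrocytes library 3 the adjusted p was 0.0559.

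The promoters of the neighbours *Kcna3* and *Kcna2* and of the paired rectifiers *Kcnj10* and *Kcnj16* are shown because their genes moved apart or together in this comparison. They run from 250 bases before to 50 bases after the first start listed by RefSeq (GRCm38.p6), on the plus strand in each case, with CG dinucleotides in capitals. *Kcna3* is at chr3:107035912-107036211 and *Kcna2* at chr3:107101317-107101616.
Kcna3: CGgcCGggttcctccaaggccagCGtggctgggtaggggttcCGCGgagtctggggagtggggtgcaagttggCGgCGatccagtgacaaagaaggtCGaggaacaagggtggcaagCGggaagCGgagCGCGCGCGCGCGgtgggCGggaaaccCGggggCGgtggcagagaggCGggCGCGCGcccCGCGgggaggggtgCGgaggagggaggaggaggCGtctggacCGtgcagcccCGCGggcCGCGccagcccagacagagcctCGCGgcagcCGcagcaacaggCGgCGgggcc
Kcna2: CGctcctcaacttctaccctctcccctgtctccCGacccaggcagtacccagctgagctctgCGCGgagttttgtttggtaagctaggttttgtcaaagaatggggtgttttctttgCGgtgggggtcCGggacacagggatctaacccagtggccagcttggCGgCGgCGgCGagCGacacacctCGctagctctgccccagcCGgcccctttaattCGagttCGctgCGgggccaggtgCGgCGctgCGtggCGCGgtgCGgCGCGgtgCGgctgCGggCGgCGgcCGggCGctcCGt
*Kcnj10* is at chr1:172340960-172341259 and *Kcnj16* at chr11:110967783-110968082.
Kcnj10: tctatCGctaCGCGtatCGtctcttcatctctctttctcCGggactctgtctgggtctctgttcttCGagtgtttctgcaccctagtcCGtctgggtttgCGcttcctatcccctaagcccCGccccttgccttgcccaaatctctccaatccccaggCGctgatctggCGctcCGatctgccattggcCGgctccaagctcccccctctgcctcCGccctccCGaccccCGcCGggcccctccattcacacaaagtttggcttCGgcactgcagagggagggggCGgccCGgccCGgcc
Kcnj16: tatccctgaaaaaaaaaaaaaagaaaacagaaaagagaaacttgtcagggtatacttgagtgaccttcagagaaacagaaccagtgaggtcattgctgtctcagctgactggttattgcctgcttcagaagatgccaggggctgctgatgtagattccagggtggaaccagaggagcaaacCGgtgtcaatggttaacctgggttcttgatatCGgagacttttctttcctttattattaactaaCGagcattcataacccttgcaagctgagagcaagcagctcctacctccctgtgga

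Both Kcna promoters were rich in CG, with 37 such dinucleotides for *Kcna3* and 31 for *Kcna2*, and the genes went opposite ways. The rectifiers, which went the same way, held 21 for *Kcnj10* and 3 for *Kcnj16*. These promoters were picked by the directions of their genes, and a relation of CG count to level was not tested. Promoters were listed for 102 of the 138 members, with a median of 10 CG dinucleotides, beside 7 over the promoters of 27025 genes. The motif TATAAA, searched on both strands, was in 4 of the 102 (*Cacna1d*, *Kcnj9*, *Kcnj13* and *Kcnj15*), or 3.92%, beside 14.2% of all promoters of this length. Members under 1 CPM in the tumor and at 1 CPM or more in the astrocytes libraries had a median of 11.5 CG dinucleotides over 40 promoters, and members at 1 CPM or more in the tumor libraries had 9 over 25 promoters.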

How the data were processed

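RNA of 9 mouse libraries, 3 labelled control, 3 BAL101553 and 3 astrocytes, was read from the table that the authors deposited. It holds whole-number counts of reads per gene, not normalized, in 24421 rows. Per the submitters' processing notes, reads were mapped with TopHat to mm10 and counted with HTSeq 0.6.1. The annotation used for counting and the use of strand are not given in the sources used here.

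Counts were analyzed in R 4.3.3. Genes were kept with edgeR 4.0.16's filterByExpr, libraries were scaled by TMM, and the 2 groups compared were fitted with the quasi-likelihood test (two-sided, Benjamini-Hochberg over all genes tested, threshold 0.05). Standard errors are the absolute log2 fold change over the square root of F. Levels are CPM scaled by TMM over all 9 libraries, and levels per kb use merged exons of GENCODE vM21, where 137 members were found under their symbol and 1 (*Scn2a1*) under an earlier name. Ratios with 1 to 3 BAL101553 reads carry exact binomial 95% intervals, and both these and the floor of 3 reads cover counting error only. DESeq2 1.42.0, limma-trend with a prior count of 2, other scalings and filters, all 9 libraries in 1 model, a replicate block and left-out libraries were alternatives. The fits were tested on simulated data.

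The members, the partner and marker lists and the tests were chosen with earlier results of these data known. Genes described were those called between BAL101553 and control, up to 2 rises and 2 falls per class past the threshold with groups apart in the astrocytes comparison, and the highest per length of each class and group. Any other gene described was chosen after its values were seen. Some members and partner genes are not reported here by name.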

Additional observations from a re-analysis of the deposited data

How the results depend on the processing

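Between BAL101553 and control, 5 members were higher and 3 lower. DESeq2 called 8 higher and 5 lower, and 1 model of all 9 libraries called 8 higher. Fits that left out 1 library of a group, or 1 of each group, called 0 to 5 members higher and 0 to 4 lower. Of the partner genes, 3 were higher and 0 lower. DESeq2 called 1 lower, 1 model of all 9 libraries 2 lower, and the fits with left-out libraries 0 to 2 higher and 0 to 1 lower. Between astrocytes and BAL101553, fits with left-out libraries called 68 to 79 members higher, 14 to 18 lower, and 3 to 6 partner genes lower, where all libraries gave 70, 16 and 5. The causes of these differences were not tested. None of the 8 calls between BAL101553 and control changed direction in these fits. Of the 37 tested members, 7 that were not called turned direction without 1 library. *Kcnip1* (0.14 with all libraries) was at -1.10 without BAL101553 library 2, *Cacna1h* (0.46) at -0.83 and *Kcnab3* (0.40) at -0.27 without BAL101553 library 3, and *Cacna1a* (-0.15) at 0.21 without BAL101553 library 2. The others were *Kcnh2*, *Kcnk5* and *Kcnn4*, each between -0.08 and 0.17 with all libraries.

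With the replicate number as a block, 8 members were called between BAL101553 and control, but *Cacnb1* (adjusted p = 0.0572) and *Kcnd1* (adjusted p = 0.0690) were not among them, and 1371 genes were called in place of 1860. Deviations of same-numbered BAL101553 and control libraries correlated at 0.102, 0.00547 and 0.112 over genes, and BAL101553 library 2 correlated best with another number, so the numbers were not taken as pairs. Scaling by total library size moved the median log2 fold change of all genes from 0.18 to 0.39 between astrocytes and BAL101553 and from 0.02 to 0.10 between BAL101553 and control. With 3 libraries per group and most members under 1 CPM in the tumor, 101 of the members could not be tested between BAL101553 and control.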
